A study of Homo sapiens with 4 samples.

Results

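Genes of motile cilia and the axoneme were examined in GIST-T1 cells that received a miR-34a mimic. They were chosen by name: SPEF1, SPEF2, RTDR1, CCP110, RFX2, RFX3 and CCNO, together with every gene whose name starts with DNAH, DNAI, DNAL, RSPH, TEKT, IFT or BBS followed by a number or by a letter and a number. The choice took 58 of the 36337 gene names on the array and 103 of its 50599 probes. SPEF1 and RTDR1 were selected on their large increases in this same contrast, so the values of the chosen genes are given as a description and without a test. GIST-T1 is a human gastrointestinal stromal tumor cell line. Batches of 3000000 cells were nucleofected with 100 pmol of either a mirVana miR-34a mimic or mirVana Negative Control #1, and RNA was taken after 48 h. Each condition had 2 one-color Agilent arrays, labeled as replicates 1 and 2. Both conditions therefore shared the cell line, the electroporation and an RNA duplex, and differed in the sequence of that duplex. The labels do not say whether the replicates came from separate cultures, so the spread between arrays may be technical.

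An axoneme is the bundle of microtubule doublets inside a cilium or sperm tail. In motile cilia, dynein arms on the doublets generate the beat, radial spokes and a central pair of microtubules coordinate it, and tektins stiffen the doublet wall. Most cell types can also build a single non-motile primary cilium, which lacks the arms and spokes but is assembled by the same intraflagellar transport (IFT) trains and served by the same BBSome, a complex that moves membrane proteins. The miR-34 and miR-449 families are known for their high levels in multiciliated epithelia, where they promote the formation of basal bodies, in part by repressing CCP110.

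The mature strand of miR-34a and 2 miR-449 strands in the RefSeq table (GRCh38.p14) are shown because they carry the same seed. The strand of miR-34c, also of the miR-34 family, is not shown. The seed, bases 2 to 8 from the 5′ end, is in capitals.
hsa-miR-34a-5p: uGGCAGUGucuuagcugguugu
hsa-miR-449a: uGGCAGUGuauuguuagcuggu
hsa-miR-449b-5p: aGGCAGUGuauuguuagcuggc
The strands of miR-34b and miR-449c hold the same run displaced by a base, so that bases 2 to 8 read AGGCAGU.
hsa-miR-34b-5p: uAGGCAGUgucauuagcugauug
hsa-miR-449c-5p: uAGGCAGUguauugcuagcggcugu

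In GIST-T1 cells, most IFT and BBS genes were detected, and most dynein and tektin genes were not. A probe counted as detected on an array where the scanner software called it well above background, and it entered the test if this was so for both replicates of either condition or of both. Of the 58 cilium genes, 35 (60.3%) were tested, 20 were detected on no array, and 3 (RFX3, DNAH10 and RSPH4A) were detected on some arrays without being tested. Over all gene names, 44.6% were tested. All 8 BBS genes and 11 of the 13 IFT genes were tested, whereas only 6 of the 19 dynein genes, 3 of the 6 radial spoke genes and 1 of the 5 tektin genes were. IFT57 and IFT74 were the IFT genes not well above background. The dynein genes detected on no array included DNAH5, DNAH9, DNAI1 and DNAI2, which encode the main force-generating and intermediate chains of the outer dynein arm. Also detected on no array were DNAH1, DNAH3, DNAH6, DNAH7, DNAH8, DNAH12, DNALI1 and DNAH10OS, a transcript from the opposite strand of DNAH10 that the choice by name took in. RSPH6A, RSPH10B, TEKT1, TEKT2, TEKT3 and TEKT5 completed the undetected members. Of the 35 tested genes, 34 were detected on all 4 arrays, the exception being DNAH17.

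**Figure D1:**
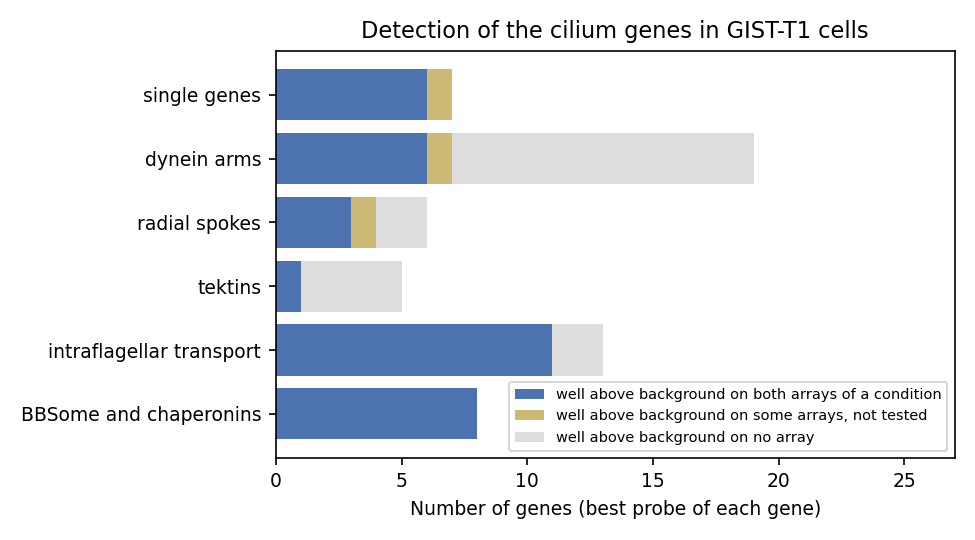
Number of cilium genes in each family (x axis) by detection of the gene's best probe: tested, that is detected in both replicates of either condition (blue), on some arrays without being tested (yellow), or on no array (gray). All 8 BBS genes and 11 of 13 IFT genes were tested, against 6 of 19 dynein genes and 1 of 5 tektins.

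The markers of the labeled cell type were present. KIT, ANO1, ETV1, PRKCQ and CD34, which mark gastrointestinal stromal tumors, were well above background on all 4 arrays. KIT differed by -0.70, -0.74 and -0.70 on its 3 probes, CD34 by 0.37 and 0.39 on its 2 probes, and the probes of the other 3 genes by -0.23 to 0.29. A list of 9 markers of multiciliated epithelium included EPCAM and CDH1, which mark epithelium in general. Of the 9, 2 (EPCAM and TPPP3) were detected on all 4 arrays, and FAM183A on 1 array. EPCAM differed by 0.41 (SE 0.13) and TPPP3 by 0.38 (SE 0.20), in the direction of most of the cilium genes described next and without overlap between conditions, and their part in those results was not tested. FOXJ1, the master regulator of motile ciliogenesis, MCIDAS, SNTN, CDH1 and the other markers of that list were detected on no array.

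SPEF1, which encodes a microtubule-bundling protein of the central pair, had the largest increase of the chosen genes on the brightest tested probe. Signals are given as log2 values relative to the 75th percentile of each array. SPEF1 gave -0.44 and -0.35 with the miR-34a mimic and -1.96 and -1.64 with the negative control. Both miR-34a mimic arrays lay above both negative control arrays, and the difference was 1.40 (SE 0.13), or 2.65-fold. In RNA of whole cultures, more cells holding a transcript and more transcript per cell cannot be told apart. Another background correction, normexp with an offset added to every signal, gave 0.72. The value came from 1 probe at chr20:3758152-3758211 (hg19), and the other SPEF1 probe was detected on no array.

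RTDR1, now named RSPH14 in RefSeq and related to the radial spoke head proteins, was measured by 2 tested probes that differed in size of effect. The probe at chr22:23401609-23401668 gave -0.54 and -0.52 with the miR-34a mimic and -1.89 and -1.81 with the negative control, a difference of 1.32 (SE 0.06). The brighter probe, at chr22:23478385-23478444, gave -0.78 and -0.72 with the miR-34a mimic and -1.04 and -1.21 with the negative control, a difference of 0.38 (SE 0.08). On both probes the conditions did not overlap, but only on the first did the difference exceed 1.5-fold, the threshold the study used. With normexp the probes gave 0.55 and 0.19.

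RSPH1, a radial spoke head protein whose loss causes primary ciliary dyskinesia, also had 2 tested probes that differed. The probe at chr21:43892621-43892680 gave -2.12 and -1.92 with the miR-34a mimic, where it was detected, and -3.75 and -3.74 with the negative control, where it was not well above background. Against the lowest signal well above background on the negative control arrays, this probe was 2.29-fold higher with the miR-34a mimic. It entered the test through the miR-34a mimic arrays, where it was high. The brighter probe, at chr21:43892911-43892970, gave -2.07 and -2.92 with the miR-34a mimic and -2.61 and -2.37 with the negative control. There the miR-34a mimic arrays lay on either side of the negative control arrays, and the difference was -0.01 (SE 0.33), or 0.16 with quantile scaling.

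**Figure D2:**
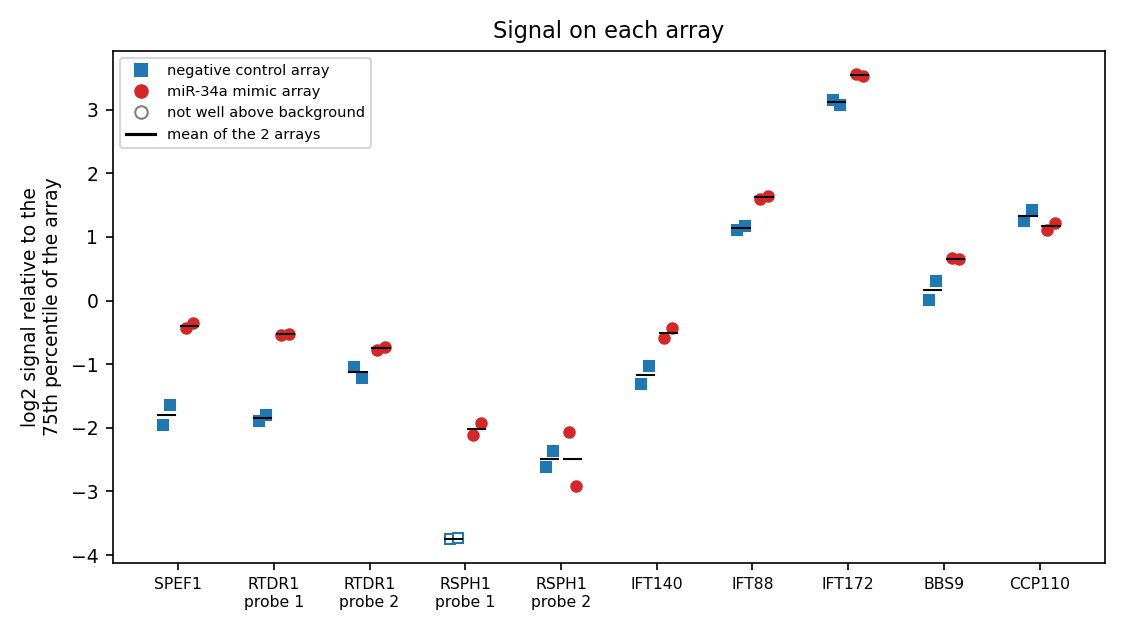
Signal of selected probes on each array, as log2 relative to the array's 75th percentile (y axis). Squares are negative control arrays, circles are miR-34a mimic arrays, open symbols are not well above background and bars are means of 2 arrays. SPEF1, the first RTDR1 probe and the first RSPH1 probe separated widely, the second RSPH1 probe overlapped, and CCP110 was slightly lower with the miR-34a mimic.

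Most of the tested cilium genes were slightly higher with the miR-34a mimic. On the brightest tested probe of each gene, 28 of 35 (80.0%) were higher and 7 lower, where 48.7% of the 16192 gene names tested were higher. The median difference of the 35 genes was 0.27, with a range from -0.51 to 1.40, and the median over all tested genes was -0.0067. SPEF1 and IFT140 were higher by more than 1.5-fold, a size reached by 1.95% of all tested genes, and none of the 35 was lower by more than 1.5-fold, where 4.83% of all tested genes were. Both miR-34a mimic arrays were above both negative control arrays for 25 of the 35 genes, against 31.3% of all tested genes, and below them for 3, against 30.7%. The chosen genes included some picked on this contrast, so nothing is read from these shares.

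In the limma fit over 21474 probes, no gene passed an adjusted p of 0.05 in either direction. The lowest adjusted p was 0.0948, and 5222 probes had an unadjusted p below 0.05. For any single gene, permuting the 4 arrays exactly gives no two-sided p below 0.33. No p is given for the chosen genes.

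**Figure D3:**
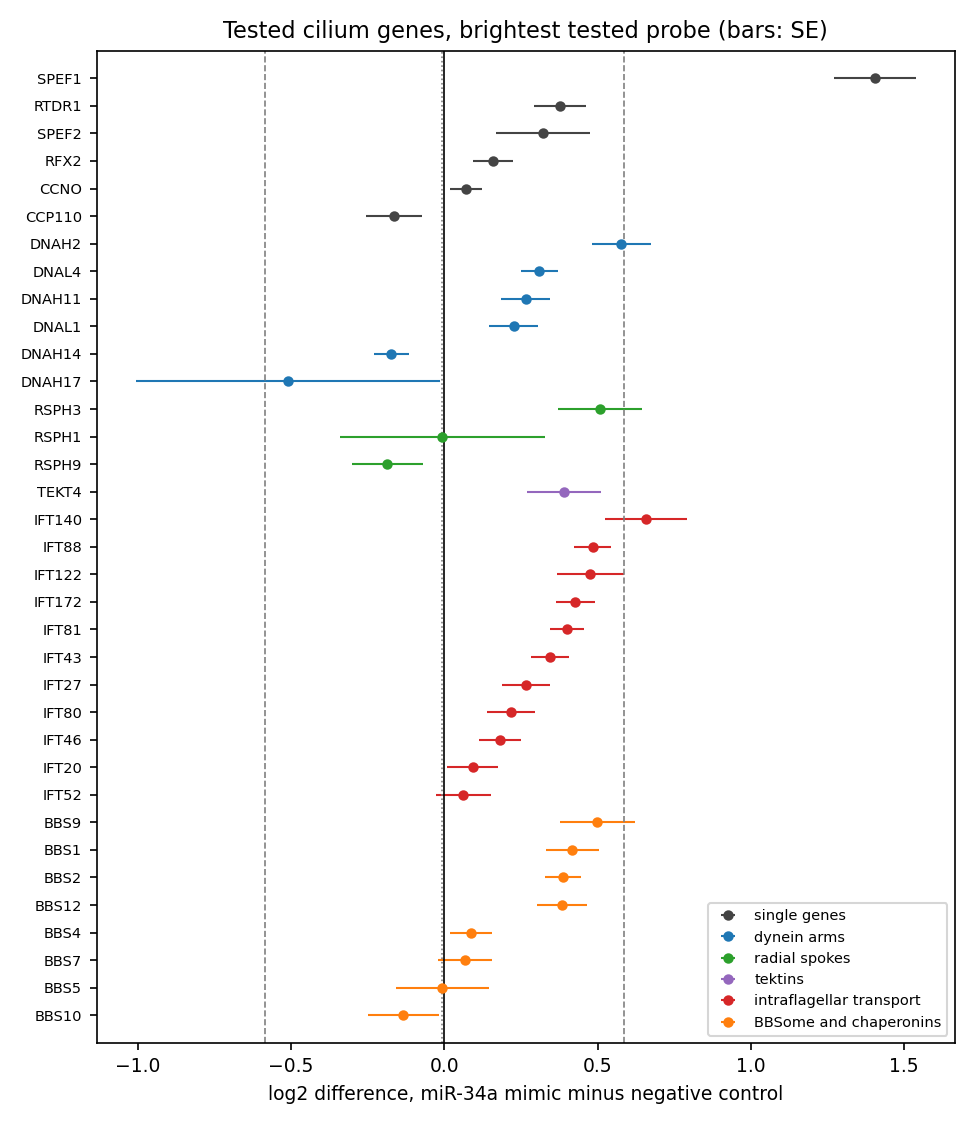
Log2 difference, miR-34a mimic minus negative control (x axis), on the brightest tested probe of each of the 35 tested cilium genes, with bars for the standard error and color for the family. Dashed lines mark 1.5-fold, and the dotted line marks the median of all tested genes. All 11 IFT genes lie to the right of 0, while dynein and radial spoke genes lie on both sides.

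All 11 tested IFT genes were higher with the miR-34a mimic, with a median difference of 0.34. IFT140, a subunit of the IFT-A complex that returns cargo from the ciliary tip, gave -0.59 and -0.44 with the miR-34a mimic and -1.32 and -1.03 with the negative control, a difference of 0.66 (SE 0.13), or 1.58-fold, and 0.37 with normexp. IFT122, another IFT-A subunit, gave 0.47 and 0.35 with the miR-34a mimic against -0.18 and 0.05, a difference of 0.48 (SE 0.11). In neither gene did the conditions overlap, and a further IFT-A gene, IFT43, differed by 0.34 (SE 0.06).

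Among genes of the IFT-B complex, which carries cargo toward the tip, IFT88 gave 1.60 and 1.65 with the miR-34a mimic and 1.11 and 1.17 with the negative control, a difference of 0.48 (SE 0.06). IFT172 gave 3.56 and 3.52 against 3.16 and 3.07, a difference of 0.43 (SE 0.06). IFT81 gave 2.94 and 2.97 against 2.54 and 2.58, a difference of 0.40 (SE 0.05). These 3 genes did not overlap between conditions, although a second IFT81 probe differed by only 0.05 (SE 0.08). The differences of IFT27, IFT80 and IFT46 were 0.27, 0.22 and 0.18, again without overlap. IFT20 and IFT52 overlapped between conditions, with differences of 0.09 and 0.06, and IFT52 was lower in the fit without miR-34a mimic replicate 2 (-0.04).

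Of the 8 BBS genes, 6 were higher, with a median difference of 0.24 over all 8. BBS9, a BBSome subunit, gave 0.67 and 0.65 with the miR-34a mimic and 0.01 and 0.31 with the negative control, a difference of 0.50 (SE 0.12). BBS1, which binds the membrane-bound GTPase that recruits the BBSome, gave -0.74 and -0.69 against -1.22 and -1.04, a difference of 0.42 (SE 0.09). BBS2 and BBS12, the latter a chaperonin-like assembly factor, differed by 0.39 (SE 0.06) and 0.38 (SE 0.08), and none of these 4 genes overlapped between conditions. BBS4 and BBS7 differed by 0.09 and 0.07. BBS5 gave 5.02 and 5.39 with the miR-34a mimic against 5.26 and 5.16 on its brighter probe. The difference was -0.0066 (SE 0.15), and its sign turned with quantile scaling and with normexp. The other BBS5 probe differed by 0.03 (SE 0.05), without overlap. BBS10, a further chaperonin-like factor, gave 0.88 and 0.84 against 1.13 and 0.85, a difference of -0.13 (SE 0.12) that rested on negative control replicate 1. BBS10 and the brighter BBS5 probe overlapped between conditions.

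The 6 tested dynein genes were mixed, 4 higher and 2 lower. DNAH2, an inner arm heavy chain, gave -2.01 and -1.82 with the miR-34a mimic and -2.44 and -2.54 with the negative control on its brighter probe, a difference of 0.58 (SE 0.10), and 0.16 with normexp. Its other tested probe overlapped between conditions and differed by -0.11 (SE 0.19). The light chains DNAL4 and DNAL1 differed by 0.31 (SE 0.06) and 0.23 (SE 0.08), and the outer arm heavy chain DNAH11 by 0.27 (SE 0.08). DNAH14, another heavy chain, differed by -0.17 (SE 0.06), -0.09 (SE 0.08) and -0.05 (SE 0.21) on its 3 tested probes, and only the first separated the conditions. DNAH17, a heavy chain of the sperm tail, gave -2.35 and -3.31 with the miR-34a mimic against -1.87 and -2.78, a difference of -0.51 (SE 0.50). Its replicates differed more than its conditions, and its difference ran from -0.99 to -0.03 as single arrays were left out. The median of the dynein genes was 0.25 for the 6 tested and -0.03 when the 19 genes were taken without the filter on dim probes.

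RSPH3, the radial spoke stalk protein, gave 0.42 and 0.12 with the miR-34a mimic and -0.31 and -0.16 with the negative control, a difference of 0.51 (SE 0.14). RSPH9, a spoke head protein, gave 1.79 and 1.51 against 1.83 and 1.84, a difference of -0.19 (SE 0.12). In both genes the conditions did not overlap, and their differences had opposite signs. TEKT4, the tested tektin, gave -1.36 and -1.52 against -1.71 and -1.95, a difference of 0.39 (SE 0.12). SPEF2, a central pair protein, differed by 0.32 (SE 0.15) and 0.33 (SE 0.06) on its 2 tested probes, and its remaining probe was detected on no array.

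CCP110, which caps the mother centriole and must leave it before a cilium can grow, is a known target of the miR-34 and miR-449 families in multiciliated cells. It gave 1.12 and 1.22 with the miR-34a mimic and 1.24 and 1.42 with the negative control. Both miR-34a mimic arrays were below both negative control arrays, by a narrow margin, and the difference was -0.16 (SE 0.09), or 1.12-fold lower. It ran from -0.25 to -0.08 as single arrays were left out. RFX2, a transcription factor of cilium genes, gave 0.10 and 0.20 with the miR-34a mimic against 0.00 and -0.02, a difference of 0.16 (SE 0.06). CCNO, needed for the mass production of centrioles in multiciliated cells, gave 0.26 and 0.27 against 0.20 and 0.18, a difference of 0.07 (SE 0.05). None of the 4 RFX3 probes was tested, and 1 was detected on miR-34a mimic replicate 1 and negative control replicate 1.

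A list of 132 other cilium genes, arranged by role, was read from the same fit. The list was drawn up with earlier results of these data known, so nothing is read from the shares set beside its counts. The array held 131 of the 132. Of these, 97 were tested, 73 higher and 24 lower, with a median difference of 0.20. By more than 1.5-fold 18 were higher and 3 lower, beside 1.95% and 4.83% of all tested genes. Of these 97 genes, 89 were detected on all 4 arrays, and entry to the test through the condition where a gene was high favors a difference. With only probes detected on all 4 arrays, 65 of 89 were higher, with a median of 0.14, and 13 were higher by more than 1.5-fold. Over all 15252 genes tested with that filter, 212 were higher and 391 lower by more than 1.5-fold. None of the 97 passed the limma test. When the prior variance was allowed to follow the signal, limma called 20 higher and 2 lower, beside 4.28% and 3.96% of all tested genes.

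Genes of the transition zone, the gate at the base of the cilium, were mostly higher. Of 15 tested, 13 were higher, with a median difference of 0.41. By more than 1.5-fold 7 were higher, beside 1.95% of all tested genes. With only probes detected on all 4 arrays, 13 were tested, 11 were higher, 5 exceeded 1.5-fold and the median was 0.29. Over all genes with that filter, 212 of 15252 were higher by more than 1.5-fold. NPHP4, a nephrocystin of this gate, gave -1.60 and -1.23 with the miR-34a mimic and -2.36 and -2.53 with the negative control, a difference of 1.03 (SE 0.16, limma adjusted p = 0.101), and 0.26 with normexp. The conditions did not overlap, but the gene did not pass the test. The membrane-complex gene TCTN2 gave -1.77 and -2.75 with the miR-34a mimic against -3.23 and -3.24, and was detected on the miR-34a mimic arrays only. There it was 1.94-fold above the lowest signal well above background on the negative control arrays. TCTN2 entered the test through the miR-34a mimic arrays, so no p is given, and its difference was 0.17 with normexp. B9D2, TCTN1 and TMEM231 were also past 1.5-fold, as was RPGRIP1L, which entered the test through the miR-34a mimic arrays. With normexp the median was 0.18 and only TCTN1 of these genes exceeded 1.5-fold.

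Of 26 tested partners of the IFT and BBS complexes, 23 were higher, with a median of 0.27, and 4 exceeded 1.5-fold. The largest of these were TTC21A (0.81) and WDR19 (0.72), both IFT-A genes. TTC21B, the paralog of TTC21A and also an IFT-A gene, gave -1.05 and -1.45 with the miR-34a mimic against -0.92 and -0.86, a difference of -0.36 (SE 0.16, limma adjusted p = 0.271) without overlap. SDCCAG8, a centrosomal protein, was the partner lower by more than 1.5-fold, with 0.02 and -1.21 on the miR-34a mimic arrays against 0.01 and -0.01. Its difference of -0.60 came from miR-34a mimic replicate 2 alone and was 0.02 without that array. Among axoneme genes, AK8, an adenylate kinase of the ciliary shaft, gave -2.37 and -2.61 with the miR-34a mimic against -4.10 and -3.49. It was detected on the miR-34a mimic arrays only, 1.65-fold above the lowest signal well above background on the negative control arrays. AK8 too entered the test through the miR-34a mimic arrays, and its difference was 0.33 with normexp.

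Of the regulators of multiciliated cells, the 2 past 1.5-fold were both lower, and with normexp 1 of them, E2F5 (-0.83), stayed past 1.5-fold while MYB was at -0.46. FOXJ1, MCIDAS and GMNC were detected on no array, and 4 of 10 regulators were tested. E2F5, a transcription factor that works with MCIDAS, gave 0.25 and 0.56 with the miR-34a mimic against 1.42 and 1.44, a difference of -1.03 (SE 0.13, limma adjusted p = 0.0954). MYB, a transcription factor of early multiciliated cells and of proliferating cells, gave -1.44 and -1.39 against -0.47 and -0.63, a difference of -0.87 (SE 0.08, limma adjusted p = 0.0948). In both genes all miR-34a mimic arrays were below the negative control arrays, and both were called lower with the variance trend, with adjusted p of 0.0157 and 0.0238 by limma. E2F4 and RFX1 differed by -0.06 and 0.15.

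Genes of the centriole and basal body differed little. Of 22 tested, 15 were higher and 7 lower, none by more than 1.5-fold, with a median of 0.09. CEP97, which acts with CCP110 at the centriole end, gave -1.81 and -1.39 with the miR-34a mimic against -1.89 and -1.83, a difference of 0.26 (limma adjusted p = 0.402). KIF24, the kinesin that holds CCP110 there, gave 0.02 and 0.15 against 0.07 and 0.07, a difference of 0.02 (limma adjusted p = 0.902). Of 6 tested genes of cilium disassembly, 3 were higher and 3 lower, and HDAC6, a tubulin deacetylase, was the highest at 0.52.

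**Figure D4:**
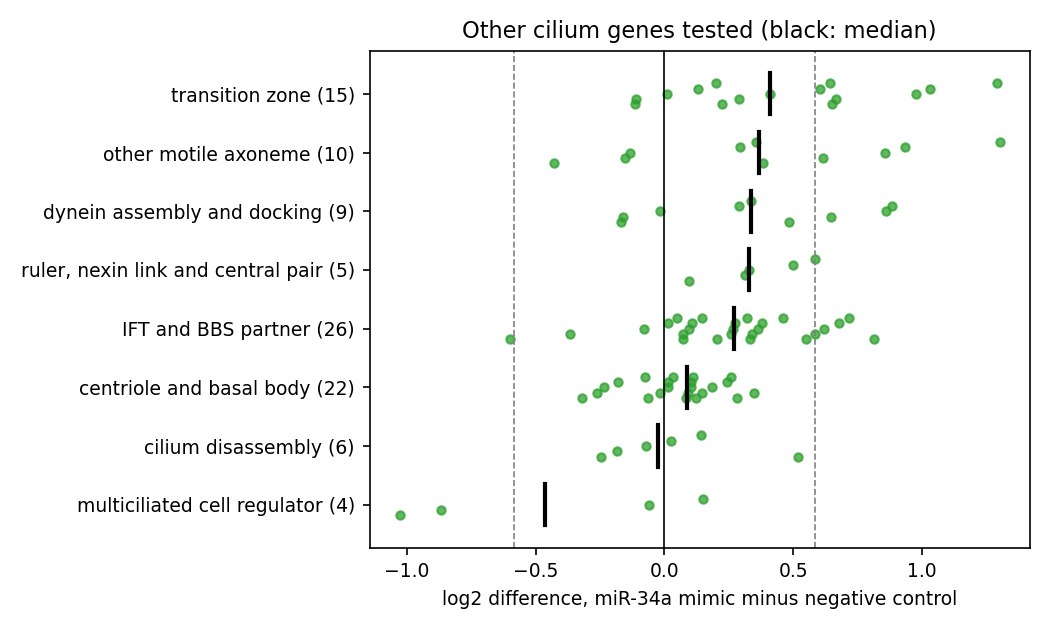
Log2 difference, miR-34a mimic minus negative control (x axis), of 97 other cilium genes by role, with the number tested in parentheses, a black line at each median and dashed lines at 1.5-fold. The transition zone genes have a median of 0.41, and the 2 lowest genes are the regulators E2F5 and MYB.

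The median of the chosen cilium genes stayed above 0 in each of the settings plotted. It ran from 0.16 with normexp to 0.29 among the settings that kept the filter on dim probes, and was 0.09 without that filter. The median of all tested genes stayed between -0.04 and 0.02. The IFT and BBS genes together, 17 of 19 higher, had a median from 0.19 to 0.36 over the same settings.

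**Figure D5:**
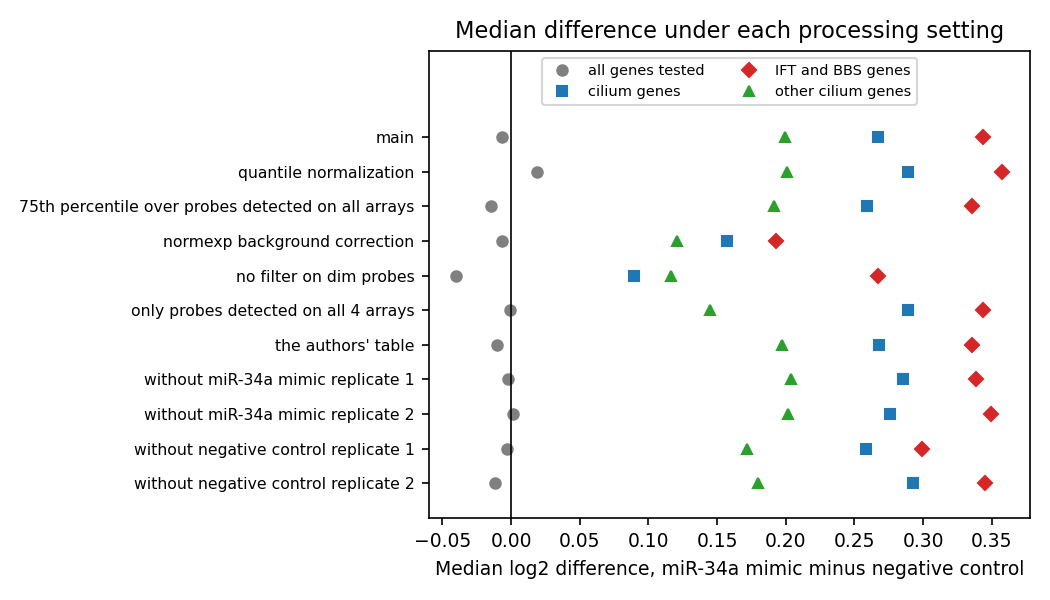
Median log2 difference, miR-34a mimic minus negative control (x axis), under each processing setting (rows) for all tested genes (gray circles), the chosen cilium genes (blue squares), the IFT and BBS genes among them (red diamonds) and the other cilium genes (green triangles). The medians of the 3 cilium groups stayed above that of all genes, which lay between -0.04 and 0.02.

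Promoters were read because the RFX factors bind cilium genes through a conserved element, the X-box. RefSeq promoters (GRCh38.p14), from 250 bases before the start to 50 after it, were at hand as 60 windows for 52 of the 58 genes. An X-box match on either strand was found in 7 of the 60 windows (11.7%), in 12 of 115 windows of the other cilium genes (10.4%) and in 279 of all 35116 windows (0.795%). The shorter run GTTGCC, or GGCAAC on the other strand, which overlaps many X-boxes, was in 45.0% of the windows of the chosen genes and 12.2% of all windows. The 7 genes were RTDR1, IFT122, CCNO, RSPH9, DNAH1, DNAI2 and IFT57. Of these, 4 were tested and differed by 0.38, 0.48, 0.07 and -0.19, while DNAH1, DNAI2 and IFT57 were detected on no array. A match is a description of letters and was not tested as a site.

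The windows of RTDR1 and IFT122 are shown as examples, picked because of a match close to the start and a higher signal with the miR-34a mimic. IFT57 and DNAI2 also held a match close to the start and were detected on no array. RSPH9, with a match farther away, was lower. Whether a match goes with a difference was not tested. The window of SPEF1, the gene with the largest difference on the brightest tested probe, held neither an X-box match nor GTTGCC. X-box matches are in capitals, and RTDR1 held 2 copies in tandem, the first beginning 43 bases before the start. The match of IFT122 began 12 bases before the start. The RTDR1 window is chr22:23141941-23142240 on the minus strand, and the IFT122 window is chr3:129439974-129440273 on the plus strand.
RTDR1: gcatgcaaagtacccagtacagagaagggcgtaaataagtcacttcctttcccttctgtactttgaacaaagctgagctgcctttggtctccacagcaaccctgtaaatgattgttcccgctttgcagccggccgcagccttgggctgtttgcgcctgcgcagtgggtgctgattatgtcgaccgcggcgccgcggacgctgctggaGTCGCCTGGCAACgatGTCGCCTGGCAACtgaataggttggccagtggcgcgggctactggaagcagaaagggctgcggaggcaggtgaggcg
IFT122: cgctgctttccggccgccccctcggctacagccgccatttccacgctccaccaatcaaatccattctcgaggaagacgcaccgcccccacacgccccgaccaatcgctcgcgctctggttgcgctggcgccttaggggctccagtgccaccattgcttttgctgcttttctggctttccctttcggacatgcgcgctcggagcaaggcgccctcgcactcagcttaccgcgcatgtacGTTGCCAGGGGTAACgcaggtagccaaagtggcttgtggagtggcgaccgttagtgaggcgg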

How the data were processed

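Total RNA of GIST-T1 cells was hybridized to 4 one-color Agilent arrays, 2 for each condition, and groups were taken from the transfection given in the labels. The authors deposited the scanner output of Agilent Feature Extraction (10.7 in the submitters' processing notes) as spot intensity, with background already subtracted in the processed signal, and a table of all arrays whose intensity values matched that signal within 0.496%. How the authors scaled arrays is not given in the sources used here. All arrays shared 1 slide and 1 scan day. Of 58717 non-control spots an array, 293 to 424 were left out as outliers and 0 were saturated, and 41.8% to 45.2% of probes were well above background. The number of arrays limits the precision.

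From the deposited intensity, log2 processed signal minus the 75th percentile of each array was computed, and spots of a probe were averaged. A probe was detected where at least 50% of its spots were well above background. A gene was read on its brightest tested probe, and probes that disagreed are given side by side. Conditions were compared with limma (3.58.1, R 4.3.3) and Benjamini-Hochberg adjustment over all tested probes, in a procedure tested on simulated data. The simulation shuffled the spread over probes, so it did not cover a spread that depends on the signal. Lower bounds set the mean of the bright condition against the lowest signal well above background on the arrays of the dim one.

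The members and all lists were chosen with earlier results of these data known. Named genes were the 7 single genes with all their probes, in each family the genes past 1.5-fold and the 2 with the largest decrease and increase, and, of the other cilium genes, FOXJ1, MCIDAS, GMNC, CEP97, KIF24 and up to 5 past 1.5-fold in each direction. Some genes that this rule names are not reported here. Remaining names were added after their values were seen. Of the list of 132, PIH1D3 was not matched on the array by its name, and MCIDAS was read under the older name IDAS. All 58 gene names matched RefSeq, 57 by symbol and RTDR1 by accession. Alternatives covered scaling, background correction (normexp, offset 50), the filter, the authors' table, the probe rule, the replicate block, the variance trend, the methods' t-test and leaving out each array. Probe coordinates are hg19, as in the scanner output.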

Additional observations from a re-analysis of the deposited data

How the results depend on the processing

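The chosen cilium genes higher by more than 1.5-fold numbered 2, and 1 with normexp, 4 without the filter on dim probes, 4 with the mean over a gene's tested probes and 4 with any tested probe, a setting added after the values were seen. Leaving out single arrays gave 2 to 5, with 5 (BBS9, IFT122, IFT140, RSPH3 and SPEF1) without negative control replicate 2. Those lower numbered 0, and 5 without the filter. Leaving out single arrays gave 0 to 1, the gene being DNAH17, without miR-34a mimic replicate 1 or negative control replicate 2. Of the other cilium genes, 18 were higher (2 with normexp) and 3 lower (1 with normexp and 12 without the filter). Leaving out single arrays gave 16 to 20 and 2 to 4. The counts over all genes moved too. Of 16192 tested genes, 316 were higher and 782 lower by more than 1.5-fold, and 61 and 155 with normexp. Without the filter, 1433 of 36337 were higher and 5224 lower. Over all genes, leaving out single arrays gave 369 to 401 higher and 749 to 1049 lower. The log2 difference of SDCCAG8 ran from -1.21 to 0.0154 as single arrays were left out, turning its sign without miR-34a mimic replicate 2. Over all genes limma called 0, against 731 with normexp, 1334 with the variance trend, and 3374 by the methods' t-test unadjusted or 1 after Benjamini-Hochberg. The causes were not tested. Leaving out single arrays, which leaves a condition with 1 array whose spread is assumed to equal that of the other, gave 0 in each case. Since each condition holds replicates 1 and 2, a replicate block cannot change the difference of a probe with a value on every array. The counts past 1.5-fold were 2 and 0 for the chosen genes and 18 and 3 for the other cilium genes. Limma with the block called 0 over all genes. Deviations of same-numbered arrays correlated at -0.0276, which cannot tell whether they shared a culture or a transfection.

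Of 32 named probes, 19 moved by more than the spread between replicates with normexp, 3 with quantile scaling and 4 of 30 with the mean over probes. Dim probes limit the dynein, radial spoke and tektin families most, since 53 of the 103 probes were not well above background on any array.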
